A study of Mus musculus with 78 samples.

Results

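The glutathione S-transferases GSTA1, GSTA2, GSTA3, GSTM2, GSTM3 and GSTP1 were followed in mouse liver through a stop-exposure study. They are the 6 entries with those symbols among the 2755 genes of the count table, in which 10 symbols start with GST, and all 6 were among the 2205 genes that were tested. Male B6C3F1 mice, a hybrid strain, were 4 weeks old at the start and drank deionized water or water with 3.5 g/L dichloroacetic acid (DCA), a by-product of water disinfection that causes liver tumours in mice. RNA was read from sections of archived formalin-fixed, paraffin-embedded liver by TempO-Seq, in which pairs of detector oligos are ligated on their target transcript and the products are counted. Of 78 mice, 1 library each, 68 libraries had normalised values and were used.

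The controls, given water alone, were collected after 10 weeks (Control-10, 4 libraries) and after 32, 57 and 78 weeks (Control-32, Control-57 and Control-78, 6 libraries each). Mice of S1 received DCA for 10 weeks and water from then on, and were collected at week 10 (S1-10), week 32 (S1-32), week 57 (S1-57) or week 78 (S1-78), with 6 libraries in each group. Mice of S2 received DCA for 32 weeks and were collected at week 32 (S2-32, 6 libraries) or at week 78 after a return to water (S2-78, 4 libraries). Mice of S3 received DCA for 57 weeks and were collected at week 57 (S3-57, 5 libraries) or at week 78 after a return to water (S3-78, 4 libraries). The Direct-78 mice received DCA for all 78 weeks (3 libraries). Each group had 6 deposited libraries. The authors left out 10, whose gene ranks deviated from the average. These held 244409 to 658155 counts and came from Direct-78, S2-78, S3-78, S3-57 and Control-10 only, so the loss was uneven. The model is limited to males of a single strain and a single dose, each library is the whole tissue of a section, and the labels do not give whether a section held a tumour. Levels are given in CPM, counts scaled to a common library total with trimmed-mean (TMM) factors, and they compare libraries for the same gene but not different genes, because detector oligos differ in efficiency and abundant transcripts were attenuated in the assay.

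The median library held 2162678 counts, the smallest 541245 and the largest 4285848. In S1-32 every library was deeper than every Control-32 library (2979117 to 3914572 against 721372 to 2731045). Libraries of S3-57 (1123317 to 2030701) were all shallower than those of Control-57 (2223516 to 4153377), and libraries of S3-78 (1154431 to 1936370) and Direct-78 (541245 to 699825) were all shallower than those of Control-78 (2098777 to 4285848). In these 4 contrasts depth and group cannot be told apart. The same holds for Control-57 against Control-10 (1233543 to 2206672) and for Direct-78 against S3-78. The liver markers APOE, TTR, APOA1 and CYP2E1 were present in all 68 libraries, APOE between 12427 and 76212 CPM and CYP2E1 between 648 and 25810 CPM.

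A few libraries stood apart. In 4 of them the 15 pancreatic acinar transcripts on the panel, of 23 listed, summed to more than 1000 CPM: mouse 17 of S1-10 (6985 CPM), mouse 19 of S1-32 (3661 CPM), mouse 36 of S1-78 (33740 CPM) and mouse 47 of S2-78 (16640 CPM). On average over the libraries CEL added the most to this sum. In mouse 68 of Control-10 the 12 hepatocyte markers on the panel, of 21 listed, summed to 29214 CPM, against 100964 to 116928 CPM in the other 3 libraries of that group.

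Glutathione S-transferases join the thiol of glutathione to reactive, electron-poor compounds, which makes them more soluble and lets transporters export the conjugates from the cell. The soluble enzymes work as dimers and fall into classes by sequence, among them alpha (GSTA), mu (GSTM), pi (GSTP), theta (GSTT) and zeta (GSTZ). Hepatocytes hold large amounts of the alpha, mu and pi enzymes, whose genes are known targets of the stress-response factor NRF2 and of the nuclear receptors CAR and PXR, and the zeta enzyme GSTZ1 metabolizes DCA and is inactivated by it.

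The genes of the members lie on chromosomes 1, 3, 9 and 19 in the mouse build mm10 (GENCODE annotation). Gsta1 is at chr9:78230656-78242684 on the plus strand and Gsta2 at chr9:78331018-78355788 on the minus strand, with the near copy Gm3776 between them at chr9:78257129-78269166. Gsta3 is at chr1:21240589-21265661 (plus strand), Gstm2 at chr3:107981702-107986453, Gstm3 at chr3:107963696-107969283 and Gstp1 at chr19:4035407-4037985 (all minus strand). Paralogs share much of their sequence: of all stretches of 50 bases in the transcript, 89.7% in GSTA1, 64.2% in GSTA2, 62.3% in GSTP1, 28.8% in GSTM3, 9.36% in GSTM2 and 0% in GSTA3 were also found in another annotated gene. For GSTA1 the gene sharing most was Gm3776 (82.9% of stretches) and for GSTP1 it was Gstp2 (62.3%). Where the detector oligos of these genes bind is not given in the sources used here, so values of GSTA1, GSTA2 and GSTP1 in particular are uncertain as to which paralog they count, and only GSTA3 is free of this doubt at that length.

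The stretch from 250 to 61 bases before the start of 4 genes is given to place in these genes matches to TGANNNNGC. This pattern is wider than the letters that NRF2 is known to recognise. Starts and sequences are those of RefSeq, GRCm38.p6, and the RefSeq start of GSTA2 lies inside the longer GENCODE gene. Sequences are written 5′ to 3′ on the strand of the gene, with capitals for matches to TGANNNNGC on either strand. Positions are chr19:4037973-4038162 (minus strand) for GSTP1, where the last 13 bases as written lie in an annotated exon, chr1:21240335-21240524 (plus strand) for GSTA3, chr9:78230419-78230608 (plus strand) for GSTA1 and chr9:78347206-78347395 (minus strand) for GSTA2.
GSTP1: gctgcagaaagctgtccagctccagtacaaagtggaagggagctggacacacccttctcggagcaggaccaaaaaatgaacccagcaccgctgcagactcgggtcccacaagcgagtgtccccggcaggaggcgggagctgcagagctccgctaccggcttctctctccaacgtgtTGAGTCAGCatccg
GSTA3: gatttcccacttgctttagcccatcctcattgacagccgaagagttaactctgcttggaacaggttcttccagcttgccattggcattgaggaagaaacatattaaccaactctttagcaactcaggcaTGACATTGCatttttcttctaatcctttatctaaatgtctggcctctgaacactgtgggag
GSTA1: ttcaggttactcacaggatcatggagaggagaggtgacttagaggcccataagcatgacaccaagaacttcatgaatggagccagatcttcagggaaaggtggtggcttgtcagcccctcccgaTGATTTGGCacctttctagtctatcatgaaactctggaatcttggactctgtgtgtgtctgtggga
GSTA2: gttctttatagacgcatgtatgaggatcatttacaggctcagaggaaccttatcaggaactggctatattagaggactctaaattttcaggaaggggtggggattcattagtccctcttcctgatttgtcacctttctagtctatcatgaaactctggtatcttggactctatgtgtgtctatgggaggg

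The match lay 74 to 66 bases before the start in GSTP1, 121 to 113 in GSTA3 and 126 to 118 in GSTA1, and GSTM3, not printed, held matches at 223 to 215 and 199 to 191. No match was found in these bases of GSTA2. Over the 6 members, 4 held TGANNNNGC in this window, beside 27.4% of 32851 mouse promoters. The narrower TGACNNNGC, a part of the first motif, was held by 1 of 6 (GSTA3), beside 7.14% of promoters. The motif TGACTCA was held by 1 of 6 (GSTP1, on the opposite strand and inside its TGANNNNGC match), beside 3.34% of promoters. A match describes these letters only.

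Each treated group was set against controls of the same age, which asks how DCA, or its withdrawal, left the liver at that week. A gene was called in a contrast at an adjusted p of 0.05 or less (edgeR quasi-likelihood test, Benjamini-Hochberg over the 2205 genes) and a fold change over 1.5. Over the 9 contrasts with controls, 5 of 54 member tests were called, 4 lower and 1 higher, beside 10.5% of the 19845 tests of all genes, and 18 reached an unadjusted p under 0.05. DESeq2 called 12 and limma 9 of the same 54, beside 15.3% and 11.1% of the tests of all genes. With the RLE and the upper-quartile scaling 7 were called, 3 of them higher. The calls were GSTA2 lower in S1-10 and S1-32, GSTA3 higher in S1-32, and GSTP1 lower in S3-78 and Direct-78. Contrasts at the same week share their control libraries.

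**Figure D1:**
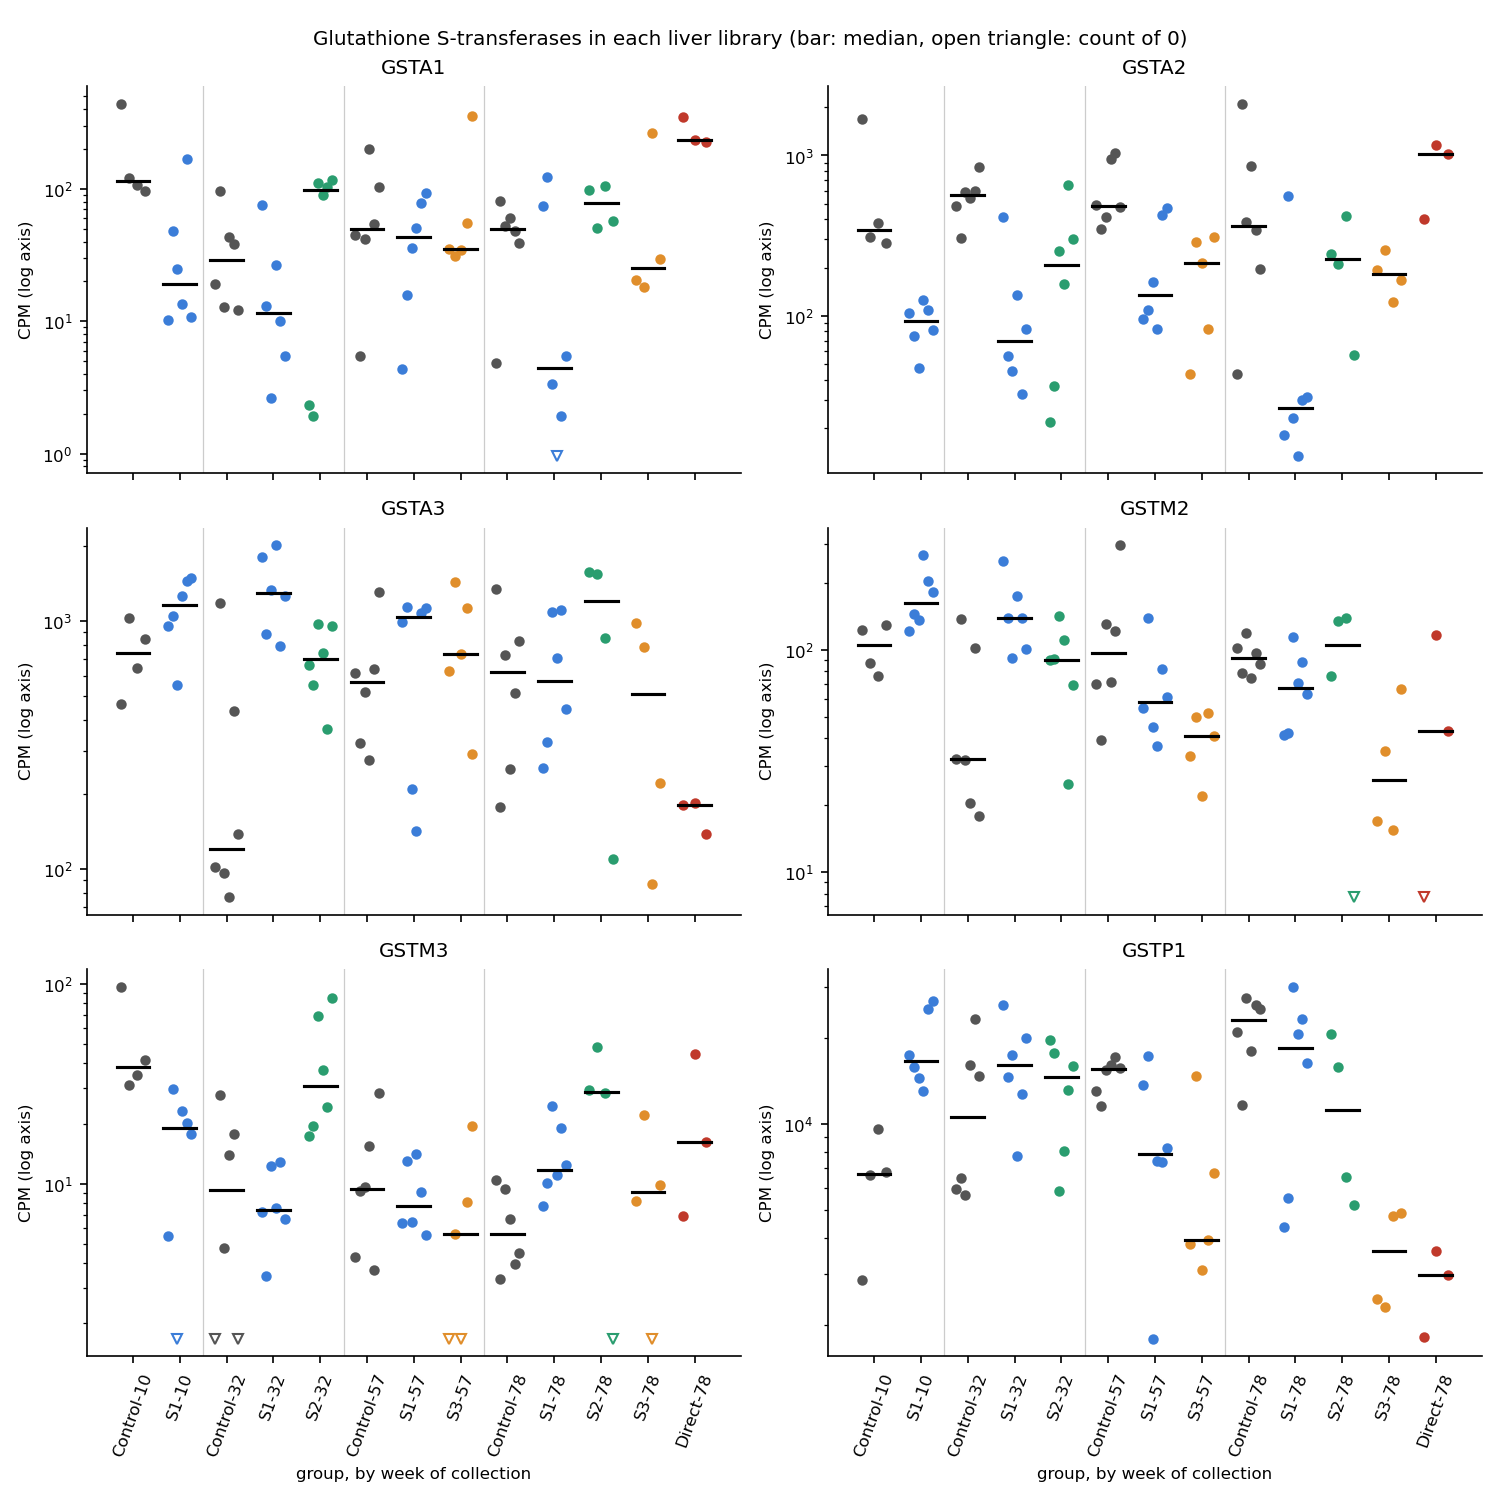
CPM on a log axis of the 6 glutathione S-transferases in each of the 68 libraries, by group in order of the week of collection. Points are libraries, bars are medians and open triangles are counts of 0. GSTP1 libraries of Direct-78 sit between 1820 and 3621 CPM, below all Control-78 libraries (11615 to 27438 CPM), and GSTA2 libraries of S1-10 sit between 47.2 and 125 CPM, below all Control-10 libraries (284 to 1699 CPM).

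Of the alpha class, GSTA2, an enzyme known to be induced by antioxidants, was low in the S1 livers. At week 10 the 4 Control-10 libraries held GSTA2 at 1699 (mouse 68), 311, 378 and 284 CPM. The 6 S1-10 libraries ranged from 47.2 to 125 CPM with a median of 92.4. All 6 treated libraries were below all 4 controls, and mouse 68 stood far above the other controls. The log2 fold change was -2.89 (SE 0.81, a 7.4-fold lower level, adjusted p = 0.0266 with edgeR, 6 of 6 libraries below all controls). GSTA2 was the 1 of 6 members called in this contrast, beside 5.49% of all tested genes. Hepatocyte markers summed to 116062 to 147536 CPM in S1-10 and 29214 to 116928 CPM in Control-10. Hepatocellular tumour markers (7 of 15 on the panel) summed to 28.1 to 53.2 CPM in S1-10 and 113 to 278 CPM in Control-10. The part of either list in GSTA2 was not tested. Without mouse 68 the log2 fold change was -1.84 (adjusted p = 0.454), and none of the 2205 genes was then called by edgeR, with 204 at an unadjusted p under 0.05. The call was also lost without mouse 14 (-2.84, adjusted p = 0.0541), mouse 15 (-2.83, adjusted p = 0.058) or mouse 18 (-2.86, adjusted p = 0.0546) of S1-10, with limma (-2.53, adjusted p = 0.0666) and with the log2 total count as a covariate (-2.56, adjusted p = 0.0618), the adjusted p of all 12 alternatives running from 0.00265 to 0.0666. These are bulk samples, in which fewer cells of a type and less RNA per cell cannot be told apart.

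At week 32, after 22 weeks without DCA, GSTA2 in the 6 S1-32 libraries ranged from 32.5 to 413 CPM with a median of 69.3. Control-32 ranged from 304 to 852 CPM with a median of 568. The libraries overlapped only through mouse 19 of S1-32 (413 CPM), 1 of the 4 libraries with acinar transcripts, and 5 of 6 treated libraries lay below all controls. The change came to -2.15 in log2 (SE 0.75, 4.42-fold lower, adjusted p = 0.0276). Together with GSTA3 this made 2 of 6 members called in S1-32, beside 29.1% of all tested genes. That background moves with single libraries: 642 genes were called with all libraries and 372 without mouse 75 of Control-32, where 2 members stayed called. The GSTA2 call was lost without mouse 20 (-2.06, adjusted p = 0.0518), mouse 21 (-2.04, adjusted p = 0.0542), mouse 23 (-2.01, adjusted p = 0.0543) or mouse 24 (-2.05, adjusted p = 0.053) of S1-32, and with the log2 total count as a covariate (-1.37, adjusted p = 0.383), which left 36 of the 2205 genes called. Without mouse 19 it was -3.01 (adjusted p = 0.00633), and over the 12 alternatives the adjusted p ran from 0.00481 to 0.383.

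Later S1 groups were low in most libraries without a call. In S1-57 GSTA2 ranged from 83 to 472 CPM (median 135) and in Control-57 from 347 to 1034 CPM (median 486). In S1-78 it was 561 CPM in mouse 32 and 13.4 to 31.2 CPM in the other 5 libraries, while Control-78 ranged from 43.3 to 2107 CPM with a median of 364. Those 5 of 6 S1-78 libraries were below all controls, and mouse 32 was within the control range. At -2.55 (SE 0.76) the log2 fold change did not pass (adjusted p = 0.0632). It was called without mouse 32 (-4.87, adjusted p = 8.5e-05), without mouse 85 of Control-78 (-2.83, adjusted p = 0.0374) and without mouse 19 of S1-32 (-2.55, adjusted p = 0.0481). It was also called by DESeq2 (-2.48, adjusted p = 0.0185) and limma (-3.20, adjusted p = 0.0152) and with the log2 total count as a covariate (-3.04, adjusted p = 0.022), and it shrank to -1.71 (adjusted p = 0.318) without mouse 86 of Control-78.

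Under longer exposure GSTA2 overlapped the controls or was not called. S2-32 ranged from 21.7 to 650 CPM (median 206), with 5 of 6 libraries below all Control-32 libraries. The 4 S2-78 libraries held 242, 210, 417 and 56.9 CPM. The 5 S3-57 libraries held 43.6, 289, 214, 82.4 and 310 CPM, all below Control-57 (log2 fold change -1.72, SE 0.79, adjusted p = 0.205). S3-78 held 194, 258, 122 and 168 CPM, all inside the wide Control-78 range (-1.82, SE 0.86, adjusted p = 0.146, and -0.99 without mouse 86 of Control-78, adjusted p = 0.424). The 3 Direct-78 libraries, with 401, 1166 and 1026 CPM, were also inside that range. Ordered by median, GSTA2 ran from Direct-78 (1026 CPM) through the controls of weeks 32, 57, 78 and 10 (568, 486, 364 and 345), S2-78 (226), S3-57 (214), S2-32 (206), S3-78 (181), S1-57 (135), S1-10 (92.4) and S1-32 (69.3) to S1-78 (26.4). The ranges of all 12 pairs of neighbours in this order overlapped, although the ends differed 38.9-fold.

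GSTA1, the closest relative of GSTA2 among the members, was called in none of the 9 contrasts with controls by edgeR (2 at an unadjusted p under 0.05, 1 call by DESeq2, 0 by limma). Control-10 held 441 (mouse 68), 121, 107 and 96.5 CPM, and S1-10 ranged from 10.3 to 168 CPM with a median of 19.1. In S1-10, 5 of 6 libraries were below all controls, and the highest was mouse 17, 1 of the libraries with acinar transcripts. The difference did not pass (log2 fold change -2.06, SE 1.01, adjusted p = 0.232). It was -1.24 without mouse 68 (adjusted p = 0.787) and -3.16 without mouse 17 (adjusted p = 0.0835). The 3 Direct-78 libraries held 352, 235 and 228 CPM. Control-78 ranged from 4.88 (mouse 85) to 80.9 CPM with a median of 50.1. All 3 Direct-78 libraries were above all 6 controls, with a log2 fold change of 2.52 (SE 1.08) that missed the threshold (adjusted p = 0.0755). It passed with RLE scaling (2.92, adjusted p = 0.0475), with upper-quartile scaling (2.97, adjusted p = 0.0453), with DESeq2 (2.92, adjusted p = 0.0268) and in a fit of the compared groups alone (2.58, adjusted p = 0.0201), and over all 12 alternatives the adjusted p ran from 0.0201 to 0.742.

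In the remaining groups GSTA1 varied widely between mice. It ranged from 0 to 124 CPM in S1-78 (median 4.43), where the count of 0 in mouse 34 allows up to 1.03 CPM (3 counts of the library), from 2.62 to 76.1 in S1-32 (median 11.6), from 4.36 to 92.5 in S1-57 (median 43.3) and from 1.94 to 116 in S2-32 (median 97.1). S2-78 held 98.6, 51, 106 and 57.7 CPM. S3-57 held 35.3, 31.3, 34.3 and 55.4 CPM with 355 CPM in mouse 54, and S3-78 held 20.4, 18 and 29.7 CPM with 266 CPM in mouse 59. Such limits cover counting error only. The medians ran from Direct-78 (235) through Control-10 (114), S2-32, S2-78 (78.2), Control-78, Control-57 (49.5), S1-57, S3-57, Control-32 (28.8), S3-78 (25.1), S1-10 and S1-32 to S1-78, and the ranges of all 12 neighbouring pairs overlapped.

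Counts of GSTA1 went along with those of its near copy GM3776, which is also on the panel. Over the 68 libraries the Spearman correlation of their log2 CPM was 0.90. The counts summed to 10136 for GSTA1 and 13774 for GM3776, and these levels are not compared because detector oligos differ in efficiency. The correlation of GSTA1 with GSTA2 was 0.58. The points share their groups and depth, and shared sequence was not tested as a source of either relation.

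**Figure D2:**
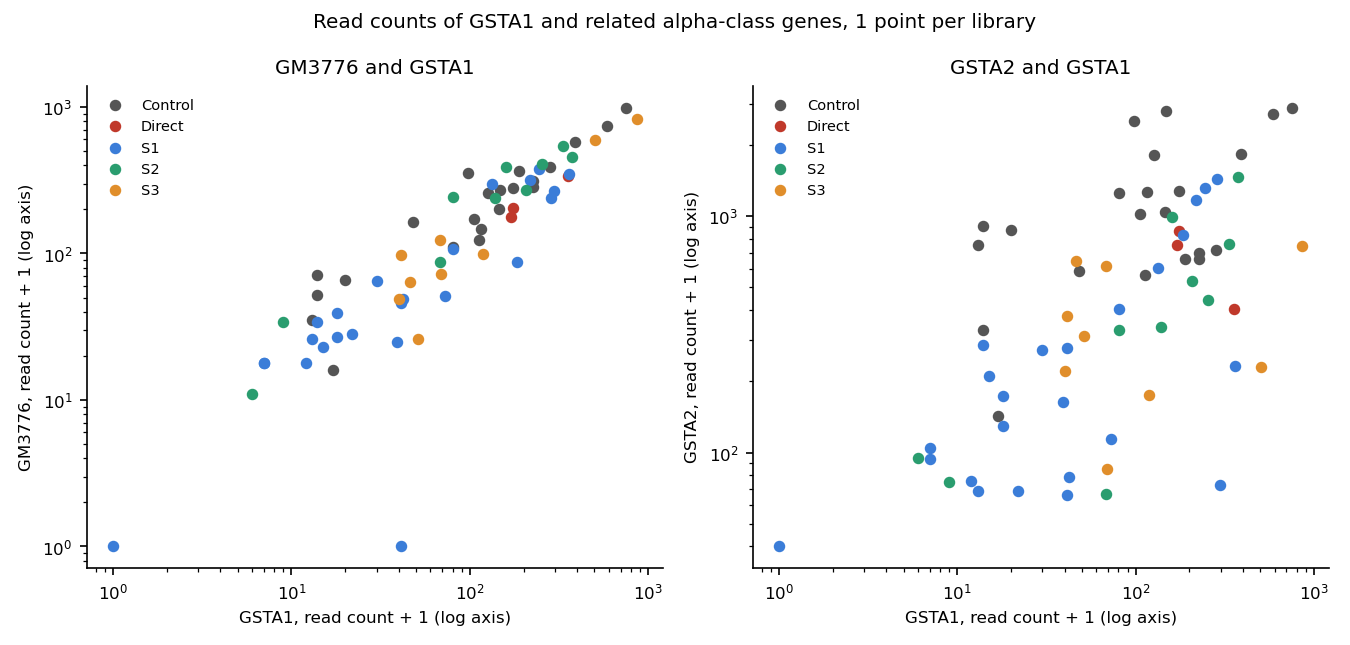
Read counts plus 1 of GM3776 (left) and GSTA2 (right) against GSTA1, on log axes, with 1 point per library and colours for the exposure series. GM3776 tracks GSTA1 closely (Spearman 0.90 over 68 libraries) and GSTA2 less so (0.58).

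GSTA3, the mouse enzyme known for its action on the epoxide of aflatoxin, was higher in the S1 livers than in controls at week 32. S1-32 ranged from 794 to 2021 CPM with a median of 1300. Control-32 held 102, 96.2, 76.9 and 138 CPM in 4 libraries, with 435 CPM in mouse 77 and 1183 CPM in mouse 74. The Control-32 median (120 CPM) was the lowest of the 13 groups. Other control medians were 745 (Control-10), 565 (Control-57) and 623 CPM (Control-78), so this contrast rests on a low control group. Of the treated libraries 4 of 6 were above all Control-32 libraries, and the overlap came from mouse 74. GSTA3 was higher by 1.99 in log2 (SE 0.58, 3.98-fold higher, adjusted p = 0.00859). Leaving out any 1 of the 68 libraries kept the call, with values from 1.77 to 2.99, the highest without mouse 74. Some cell markers were higher in the same contrast: hepatocyte markers summed to 106444 to 136677 CPM in S1-32 and 68181 to 115327 CPM in Control-32, with 3 of 12 called higher, and 3 of 6 pericentral and 3 of 8 macrophage markers were called higher, beside 29.1% of all genes called. Cholangiocyte markers, without a call, were higher as a sum (89.7 to 128 against 27.4 to 89.9 CPM) and lower as a median over the 4 genes (-1.23), and the part of any of these markers in GSTA3 was not tested. With the log2 total count as a covariate, where 36 of all genes were called, GSTA3 was at 0.91 (adjusted p = 0.393), and the 12 alternatives ran from 7.17e-04 to 0.393 in adjusted p. At week 10, S1-10 ranged from 553 to 1491 CPM (median 1156) against 464, 1032, 644 and 846 CPM in Control-10. S2-32 ranged from 368 to 976 CPM (median 704). Neither was called by edgeR, and limma called GSTA3 in S2-32.

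In Direct-78 the 3 libraries held GSTA3 at 181, 185 and 138 CPM. Control-78 ranged from 178 to 1342 CPM with a median of 623. The groups overlapped at their edge through mouse 86 of Control-78 (178 CPM), and the log2 fold change of -1.93 (SE 0.75) just missed the threshold (adjusted p = 0.0508). It passed without any 1 of mice 27, 28, 31, 47, 54, 55, 59, 68, 73, 74, 75, 76, 86 or 88 (-2.07 to -1.88, adjusted p = 0.0323 to 0.0496), 12 of them in neither group, with all 78 libraries (-1.88, adjusted p = 0.0176) and without the 4 acinar libraries (-1.93, adjusted p = 0.043). With the log2 total count as a covariate the direction turned (1.62, adjusted p = 0.398), the 12 alternatives ranging from 0.0176 to 0.398 in adjusted p. S3-78 held 980, 788, 87.4 and 223 CPM, S3-57 held 630, 1430, 735, 1126 and 292 CPM, and S2-78 held 1578, 1552 and 852 CPM with 110 CPM in mouse 47. These, S1-57 (142 to 1143 CPM, median 1036) and S1-78 (256 to 1103 CPM, median 574) overlapped their controls, Control-57 holding 275 to 1311 CPM (median 565). The medians ran from S1-32 (1300) through S2-78 (1202), S1-10, S1-57, Control-10 (745), S3-57, S2-32, Control-78, S1-78, Control-57, S3-78 (506) and Direct-78 (181) to Control-32 (120), and all 12 neighbouring pairs overlapped.

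**Figure D3:**
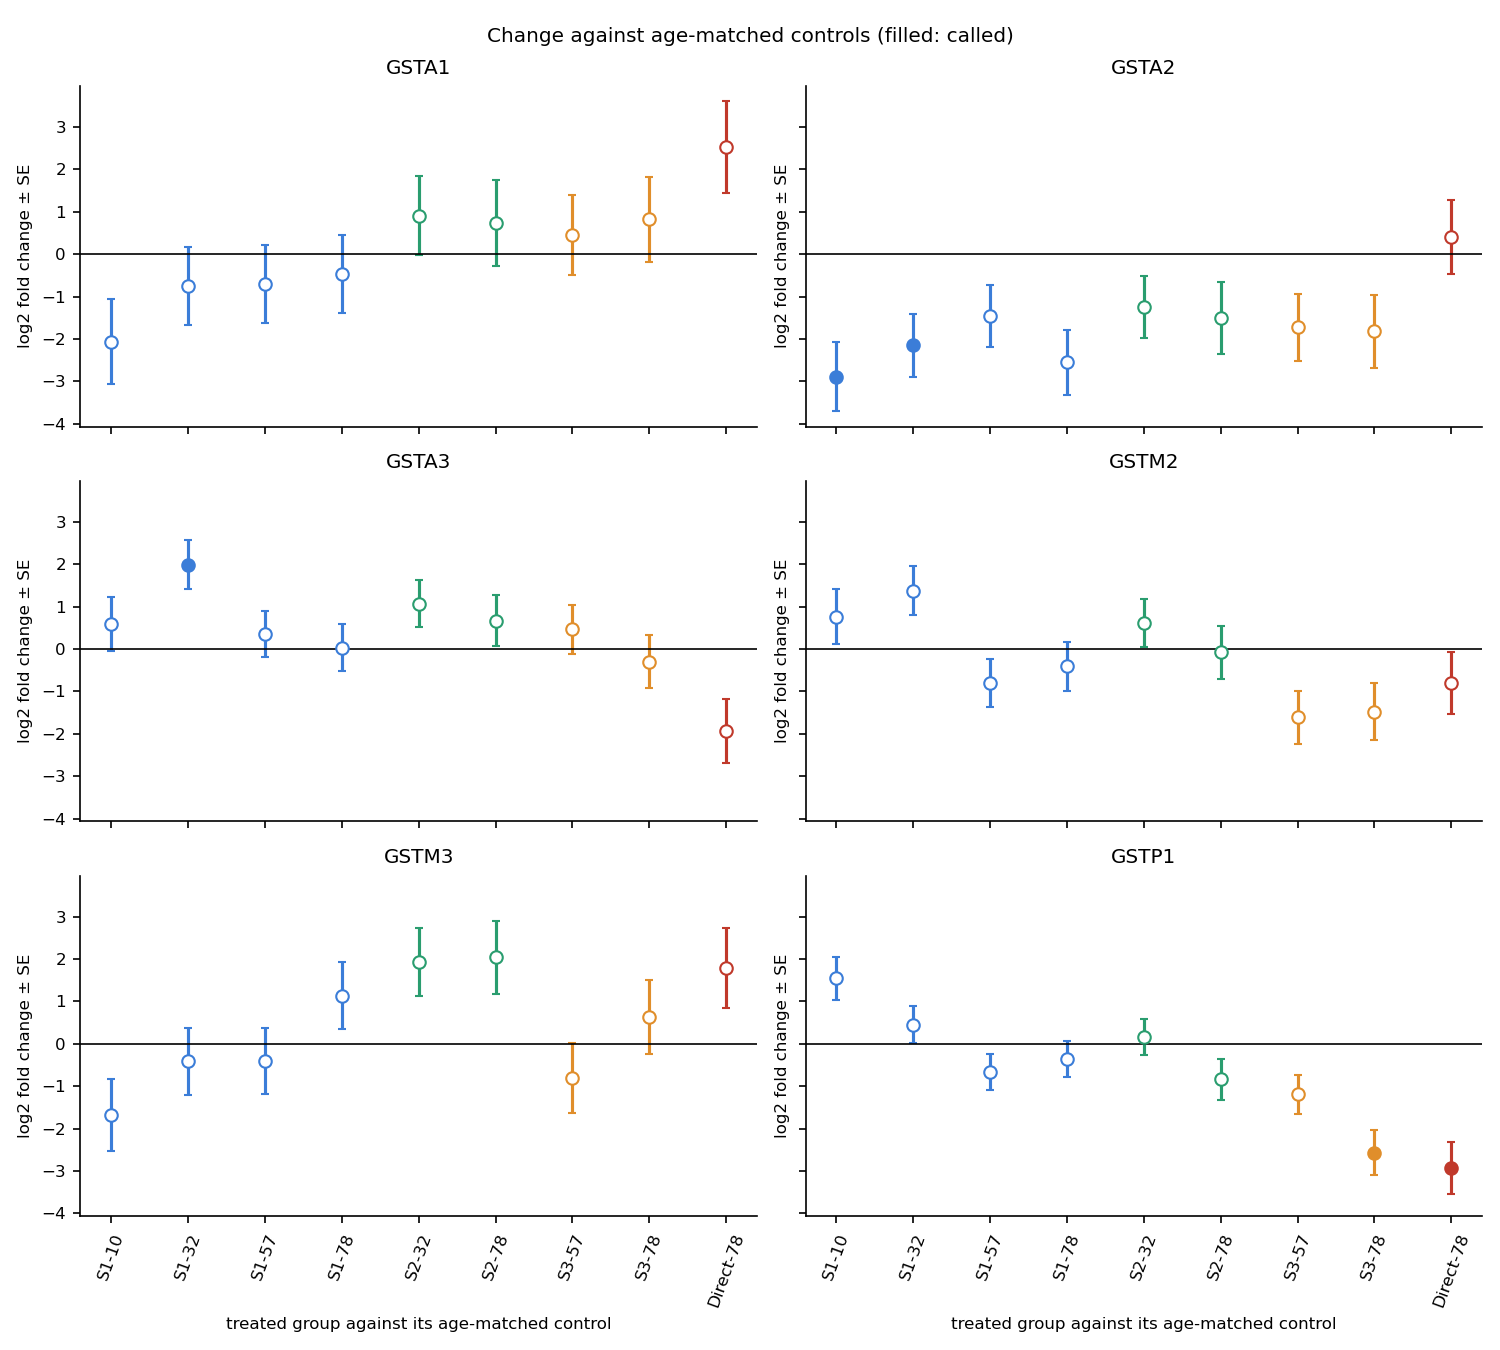
Log2 fold change with SE of each member in the 9 treated groups against controls of the same week, filled where called. Filled points are GSTA2 in S1-10 (-2.89) and S1-32 (-2.15), GSTA3 in S1-32 (1.99) and GSTP1 in S3-78 (-2.57) and Direct-78 (-2.93).

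The mu class, GSTM2 and GSTM3, conjugates epoxides and quinones and gave no edgeR call against controls. Of 9 contrasts each, GSTM2 had 3 at an unadjusted p under 0.05, 2 calls by DESeq2 and 2 by limma, and GSTM3 had 2, 1 and 1. GSTM2 in S1-32 ranged from 91.5 to 251 CPM with a median of 139, and in Control-32 from 17.8 to 137 CPM with a median of 32.1. The other control medians were higher, at 105 (Control-10), 96.3 (Control-57) and 91.6 CPM (Control-78). Of the S1-32 libraries 4 of 6 were above all Control-32 libraries, of which mouse 74 (137 CPM) and mouse 77 (102 CPM) were the highest, as for GSTA3. The log2 fold change of 1.37 (SE 0.58) did not pass (adjusted p = 0.0613). It was called without mouse 74 (1.85, adjusted p = 0.0142), mouse 77 (1.58, adjusted p = 0.0414), mouse 47 (1.34, adjusted p = 0.0309) or mouse 64 (1.37, adjusted p = 0.0375), by DESeq2 (1.34, adjusted p = 0.0283) and limma (1.88, adjusted p = 0.0364), in a fit of the compared groups alone (1.35, adjusted p = 0.0443) and with thinned counts (1.51, adjusted p = 0.0382), while over 12 alternatives the adjusted p reached 0.64.

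At weeks 57 and 78 GSTM2 was low in the S3 groups. S3-57 held 33.2, 50, 22, 52.1 and 40.9 CPM against 39.4 to 295 CPM (median 96.3) in Control-57. S3-78 held 16.9, 35.1, 15.4 and 66.3 CPM against 74.5 to 119 CPM (median 91.6) in Control-78. The S3-57 libraries overlapped the controls, and all 4 S3-78 libraries were below all controls. Neither passed (S3-57 log2 fold change -1.61, SE 0.62, adjusted p = 0.109, and S3-78 -1.48, SE 0.67, adjusted p = 0.129), although S3-57 was called without mouse 47 of S2-78 (-1.61, adjusted p = 0.0468) and by DESeq2 (-1.59, adjusted p = 0.0283), and S3-78 in a fit of the compared groups alone (adjusted p = 0.0421). Over the 12 alternatives the adjusted p reached 0.516 in S3-57 and 0.846 in S3-78. Direct-78 held 0, 117 and 43.2 CPM and S2-78 held 76.5, 134 and 139 CPM with 0 in mouse 47, counts of 0 that allow up to 2.96 and 2.59 CPM. In Direct-78 GSTM2 was called by limma but not by edgeR (-0.80, SE 0.73, adjusted p = 0.418).

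S1-10 had the highest median of GSTM2 (162 CPM, from 121 to 267), and Control-10 held 123, 87.5, 76.4 and 129 CPM. Although 5 of 6 S1-10 libraries lay above all controls, the difference was not called (0.76, SE 0.65, adjusted p = 0.532). The order by median went on with S1-32, S2-78 and Control-10 (both 105), Control-57, Control-78, S2-32 (90.3, from 24.9 to 142), S1-78 (67.1, from 41.5 to 114), S1-57 (58, from 37 to 139), Direct-78, S3-57, Control-32 and S3-78 (26), with all 12 neighbouring pairs overlapping.

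GSTM3 was near the limit of detection, with counts of 0 in 7 of 68 libraries and at most 206 counts. Control-10 held 96.7 (mouse 68), 31, 35 and 41.8 CPM, and S1-10 ranged from 0 to 29.9 CPM with a median of 18.9. All 6 S1-10 libraries were below all controls, but the contrast did not reach an unadjusted p under 0.05 (log2 fold change -1.67, SE 0.85, adjusted p = 0.249). Stellate and fibroblast markers (9 of 13 on the panel, COL1A1 adding the most on average) summed to 190 to 315 CPM in S1-10 and 262 to 655 CPM in Control-10, with 2 of 9 called lower. S2-32 ranged from 17.3 to 85.1 CPM (median 30.7) and Control-32 from 0 to 27.7 CPM (median 9.32). With 3 of 6 libraries above all controls, the log2 fold change was 1.92 (SE 0.80, adjusted p = 0.109), and it was called without mouse 74 of Control-32 (2.45, adjusted p = 0.0347), by DESeq2 (1.92, adjusted p = 0.0443) and by limma (2.66, adjusted p = 0.0262), with 0.213 the highest adjusted p over 12 alternatives. S2-78 held 29.3, 48.4 and 28.3 CPM with 0 in mouse 47, against 3.34 to 10.4 CPM (median 5.58) in Control-78, and 3 of 4 were above all controls (2.04, SE 0.86, adjusted p = 0.222, and 2.45 without mouse 47, adjusted p = 0.113). The same markers summed to 443 to 1156 CPM in S2-32 against 145 to 366 in Control-32, and to 930, 708, 338 and 165 CPM in S2-78 against 129 to 296 in Control-78, with 2 of 9 called higher in each, and their part in GSTM3 at any of these ages was not tested.

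In the other groups GSTM3 lay between 0 and 28.5 CPM except for 1 Direct-78 library. Direct-78 held 6.92, 44.5 and 16.2 CPM, S3-78 held 8.17, 22, 0 and 9.9 CPM and S3-57 held 0, 5.61, 0, 8.05 and 19.4 CPM. S1-32 (3.46 to 12.9 CPM, median 7.37) overlapped Control-32, and S1-57 (5.56 to 14.1, median 7.72) and Control-57 (3.71 to 28.5, median 9.4) overlapped each other. In S1-78 (7.75 to 24.4 CPM, median 11.7) 4 of 6 libraries lay above all Control-78 libraries (1.13, SE 0.79, adjusted p = 0.554). Stellate and fibroblast markers summed to 246 to 1910 CPM there against 129 to 296 in Control-78, with 3 of 9 called higher, and their part was not tested. The order by median ran from Control-10 (38.4) through S2-32, S2-78 (28.8), S1-10, Direct-78, S1-78, Control-57, Control-32, S3-78 (9.04), S1-57, S1-32 and S3-57 to Control-78, with all 12 neighbouring pairs overlapping.

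GSTP1, the pi-class enzyme and an abundant one in the liver of male mice, was low at week 78 in mice given DCA for 57 or 78 weeks. The 4 S3-78 libraries held 2450, 2297, 4789 and 4880 CPM. The 3 Direct-78 libraries held 1820, 3621 and 2982 CPM, from 1842 to 2683 counts. Control-78 ranged from 11615 to 27438 CPM with a median of 22958. Neither treated group overlapped the controls, the highest of the 7 treated libraries holding 4880 CPM. In S3-78, 21 weeks after the end of exposure, the log2 fold change was -2.57 (SE 0.53, 5.95-fold lower, adjusted p = 8.92e-04, 4 of 4 libraries below all controls). GSTP1 was the 1 of 6 members called in S3-78, beside 13.3% of all genes. In Direct-78 it was -2.93 (SE 0.61, 7.64-fold lower, adjusted p = 8.3e-04, 3 of 3 below all controls), again 1 of 6 members, beside 24.4% of all genes. The calls over all genes fell from 294 to 148 without mouse 55 in S3-78 and from 539 to 216 without mouse 64 in Direct-78, with GSTP1 still called. Leaving out any 1 library kept both calls, with -2.76 to -2.32 in S3-78 and -3.01 to -2.70 in Direct-78. Across all genes the median log2 fold change in Direct-78 was -0.33 with TMM scaling, 0.07 with RLE and 0.12 with upper-quartile scaling. Of the 539 genes called in Direct-78, 126 were higher (23.4%), against 46.3% of calls with RLE and 49.7% with upper-quartile scaling.

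Both groups were also shallower than their controls, and both held less hepatocyte marker RNA. The 12 hepatocyte markers, none of them at 0 throughout and APOE adding the most on average, summed to 63633, 84307, 64935 and 51328 CPM in S3-78 and 43519, 61124 and 57895 CPM in Direct-78. In Control-78 they summed to 90950 to 145145 CPM with a median of 112554. Periportal markers (5 of 11 on the panel) summed to 728 to 12528 CPM in S3-78, 2228 to 4483 in Direct-78 and 8614 to 19627 in Control-78. Of these 1 was called lower in S3-78 and 2 in Direct-78. Of 4 cholangiocyte markers 2 were called higher and 1 lower in Direct-78 (median 2.56), and none in S3-78. The 7 hepatocellular tumour markers on the panel, of 15 listed and AFP adding the most on average, summed to 2038, 66.3, 1274 and 92.1 CPM in S3-78, to 259, 85 and 127 CPM in Direct-78 and to 34.5 to 191 CPM in Control-78. The part of these markers in the fall of GSTP1 was not tested. With the log2 total count as a covariate neither call was kept (S3-78 -1.71, adjusted p = 0.0555; Direct-78 -1.36, adjusted p = 0.398) and the calls over all genes fell to 117 and 11, while thinning every library to 541245 counts kept both. Over the 12 alternatives the adjusted p ran from 1.27e-05 to 0.0555 in S3-78 and from 1.8e-05 to 0.398 in Direct-78.

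**Figure D4:**
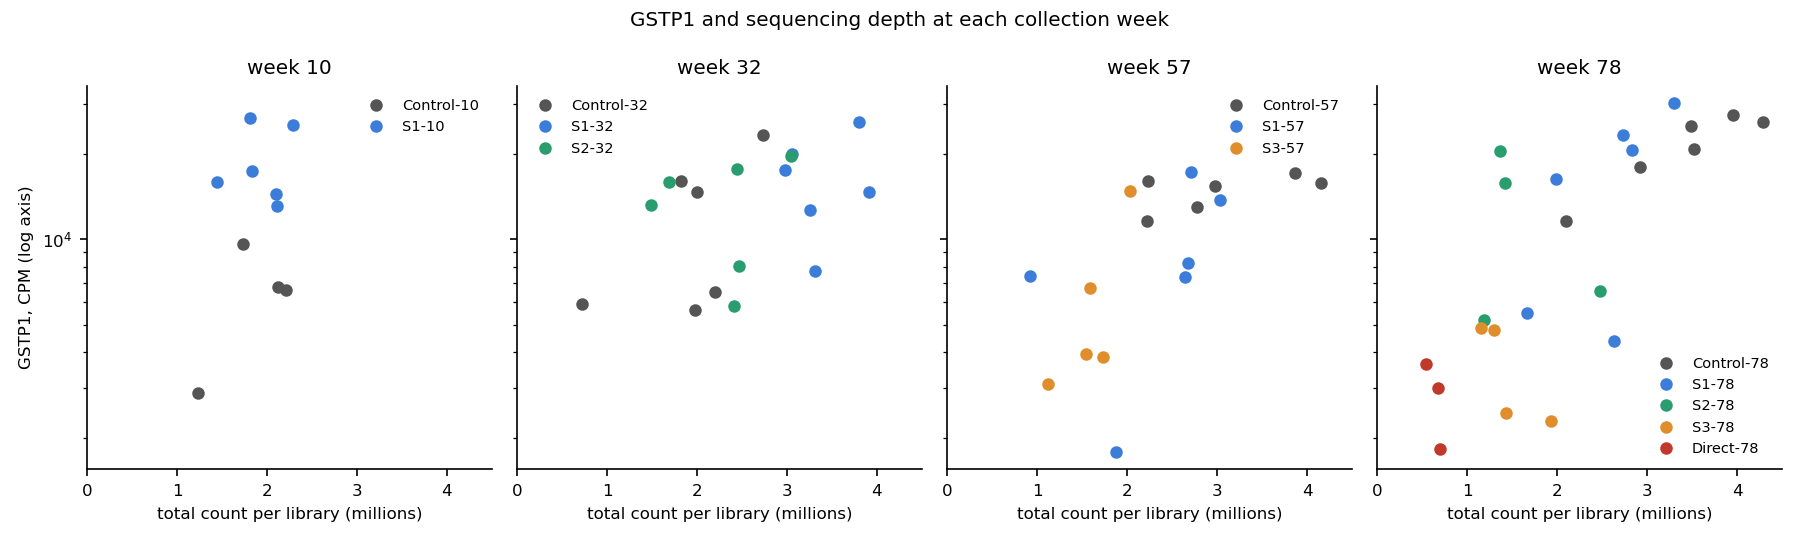
GSTP1 in CPM (log axis) against the total count of each library, in 1 panel per week of collection, with colours for groups. At week 78 the Direct-78 and S3-78 libraries are both low in GSTP1 (1820 to 4880 CPM) and shallower (541245 to 1936370 counts) than every Control-78 library.

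At week 57 the same gene was low in 4 of 5 S3-57 libraries. They held 3835, 3095, 3957 and 6727 CPM, with 14710 CPM in mouse 50, while Control-57 ranged from 11560 to 17073 CPM with a median of 15560. Mouse 50 alone reached the control range. Hepatocyte markers summed to 46737 to 88856 CPM in S3-57 (median 71908) and 72155 to 132970 CPM in Control-57 (median 113227), and their part in GSTP1 was not tested. The log2 fold change of -1.19 (SE 0.46) did not pass (adjusted p = 0.11), and without mouse 50 it was -1.75 (adjusted p = 0.0196). DESeq2 called it with all libraries (-1.18, adjusted p = 0.0348), and the highest adjusted p of 12 alternatives was 0.339. S1-57 ranged from 1786 (mouse 27) to 17258 CPM with a median of 7845, S2-78 held 20497, 15808, 6561 and 5204 CPM and S1-78 ranged from 4365 to 30034 CPM (median 18442), none of them called.

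At week 10 GSTP1 stood above controls. Control-10 held 2872 (mouse 68), 6628, 9576 and 6787 CPM, and S1-10 ranged from 13052 to 26714 CPM with a median of 16618. All 6 treated libraries were above all 4 controls. Hepatocyte markers summed to 116062 to 147536 CPM in S1-10 and 29214 to 116928 CPM in Control-10, pericentral ones to 17847 to 25250 and 8850 to 21580 CPM, and their part in GSTP1 was not tested. The log2 fold change of 1.54 (SE 0.51, 2.9-fold) just missed the threshold (adjusted p = 0.0581). It passed with RLE scaling (adjusted p = 0.0458), with upper-quartile scaling (1.43, adjusted p = 0.0494), with DESeq2 (adjusted p = 0.0131), in a fit of the compared groups alone (1.51, adjusted p = 0.0393), with all 78 libraries (1.71, adjusted p = 0.0285), and without mouse 27, 31, 32 or 50 of other groups (adjusted p = 0.0387 to 0.0483). Without mouse 68 it was 1.29 (adjusted p = 0.394), and the 12 alternatives ran from 0.0131 to 0.0901. S1-32 (7713 to 25913 CPM, median 16026), S2-32 (5838 to 19572 CPM, median 14553) and Control-32 (5643 to 23222 CPM, median 10586) overlapped. By median GSTP1 ran from Control-78 through S1-78, S1-10, S1-32, Control-57, S2-32, S2-78 (11184), Control-32, S1-57, Control-10 (6707), S3-57 (3957) and S3-78 (3620) to Direct-78 (2982), with all 12 neighbouring pairs overlapping.

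In 5 contrasts with controls edgeR called none of the 6 members. In S1-57 this stood beside 1.59% of all genes called, with 0 members at an unadjusted p under 0.05 and 0 calls by DESeq2 or limma. In S1-78 it stood beside 1.81%, with 1 member at an unadjusted p under 0.05 and 1 call each by DESeq2 and limma. In S2-32 it stood beside 10.7%, with 1 member at an unadjusted p under 0.05, 1 call by DESeq2 and 2 by limma. Its 235 calls over all genes became 121 without mouse 75 and 502 without mouse 74, where 2 members were called. In S2-78 it stood beside 1.63%, with 1 member at an unadjusted p under 0.05 and no call by DESeq2 or limma. In S3-57 it stood beside 6.39%, with 3 members at an unadjusted p under 0.05, 2 calls by DESeq2 and 0 by limma. The 141 calls over all genes in S3-57 became 55 without mouse 51, and the 35 in S1-57 became 6 without mouse 82. In S1-78 the 40 calls became 20 without mouse 36 and 75 without mouse 32, and in S2-78 the 36 became 22 without mouse 43. As a median over the 6 members the log2 fold change was -0.69 in S1-57 and -0.39 in S1-78, each beside 0.07 over all genes. For S2-32 it came to 0.76 beside 0.05, for S2-78 to 0.30 beside 0.06 and for S3-57 to -1.0 beside 0.01.

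Control livers of different ages showed how the members differ without DCA. In Control-78 against Control-10, 2 of 6 members were called, beside 3.95% of all genes. GSTM3 fell from 31 to 96.7 CPM at week 10 to 3.34 to 10.4 CPM at week 78 (log2 fold change -2.98, SE 0.88, adjusted p = 0.0362, 6 of 6 below all week 10 libraries). GSTP1 rose from 2872 to 9576 CPM to 11615 to 27438 CPM (1.73, SE 0.51, adjusted p = 0.0362, 6 of 6 above). Neither range overlapped that of week 10. Stellate and fibroblast markers summed to 262 to 655 CPM in Control-10 and 129 to 296 CPM in Control-78, with 3 of 9 called lower. Endothelial markers (6 of 11 on the panel) summed to 561 to 654 CPM in Control-10 and 300 to 437 CPM in Control-78. Hepatocyte markers summed to 29214 to 116928 and 90950 to 145145 CPM in these groups, with 1 of 12 called higher. The part of these markers in GSTM3 and GSTP1 was not tested. Both calls were lost without mouse 68 (GSTM3 -2.47, adjusted p = 0.125; GSTP1 1.49, adjusted p = 0.131). The GSTM3 call was also lost without mouse 71, 72, 86, 87, 88, 89 or 90 (-3.12 to -2.90, adjusted p = 0.0516 to 0.074), and the GSTP1 call without mouse 69, 72, 87, 89 or 90 (1.65 to 1.75, adjusted p = 0.0551 to 0.0872). With limma both missed (GSTM3 adjusted p = 0.0798, GSTP1 adjusted p = 0.058), as they did over all genes with at least 1 count (both adjusted p = 0.0519). GSTM3 also missed with all 78 libraries (adjusted p = 0.0915), and GSTP1 in a fit of the compared groups alone (adjusted p = 0.0613) and with the log2 total count (adjusted p = 0.152) or the number of detected genes (adjusted p = 0.076) as a covariate. For the 2 genes the 12 alternatives ran from 0.00252 to 0.0915 and from 0.00623 to 0.152.

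Between week 10 and weeks 32 or 57 edgeR called none of the members. In Control-32 this stood beside 1.59% of all genes, with 2 members at an unadjusted p under 0.05, 1 call by DESeq2 and 0 by limma. Its 35 calls over all genes became 5 without mouse 78 and 236 without mouse 74, where 2 members were called. In Control-57 it stood beside 3.45%, with 2 members at an unadjusted p under 0.05 and no call by DESeq2 or limma. GSTM3 was below all Control-10 libraries in 6 of 6 libraries at both ages (Control-32 -2.20, SE 0.86, adjusted p = 0.151; Control-57 -2.10, SE 0.85, adjusted p = 0.178), and in Control-32 it was called without mouse 74 (-2.74, adjusted p = 0.0449). Without mouse 68 it was -1.69 (adjusted p = 0.251) and -1.59 (adjusted p = 0.301). GSTP1 at week 57 was above all of them in 6 of 6 (1.19, SE 0.50, adjusted p = 0.184, and 0.95 without mouse 68, adjusted p = 0.301). GSTA1 was below all Control-10 libraries in 5 of 6 Control-32 libraries (-2.35, SE 1.02, adjusted p = 0.213, and -1.52 without mouse 68, adjusted p = 0.389) and in 6 of 6 Control-78 libraries (-2.02, SE 1.01, adjusted p = 0.291). The 3 ages share the Control-10 libraries.

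Continued and stopped exposure were compared at the same age, with no control library involved. In S2-32 against S1-32 edgeR called 0 of 6 members, beside 3.54% of all genes, with 1 at an unadjusted p under 0.05, 1 call by DESeq2 and 0 by limma. That member was GSTM3, with 17.3 to 85.1 CPM on continued DCA and 3.46 to 12.9 CPM after 22 weeks of water. All 6 S2-32 libraries were above all 6 S1-32 libraries (2.33, SE 0.81, adjusted p = 0.0945), and it was called by DESeq2 (2.34, adjusted p = 0.0218) and in a fit of the compared groups alone (2.33, adjusted p = 0.00378). That fit called 446 of all genes, against 78 in the main fit. Stellate and fibroblast markers summed to 443 to 1156 CPM in S2-32 and 226 to 562 CPM in S1-32, with 1 of 9 called higher. Their part in GSTM3 was not tested here either.

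In S3-57 against S1-57 edgeR called 0 of 6 members, beside 0% of all genes, with 0 members and 111 genes at an unadjusted p under 0.05 (DESeq2 called 7 genes and limma 0). In Direct-78 against S3-78 it called 0 of 6, beside 5.03% of all genes, with 2 members at an unadjusted p under 0.05 and no call by DESeq2 or limma. Those were GSTA2, higher in 3 of 3 Direct-78 libraries (2.22, SE 0.96, adjusted p = 0.156), and GSTA3 (-1.63, SE 0.77, adjusted p = 0.206). Depth does not overlap between these groups, and with the log2 total count as a covariate GSTA2 was 1.09 (adjusted p = 0.664) and GSTA3 turned to 0.21 (adjusted p = 0.903). GSTP1 differed little there (-0.36, SE 0.57, adjusted p = 0.79), both groups holding it low.

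Whether the change against controls of the same week differed between treated groups was tested as a difference of changes. Direct-78 and S1-10 differ in weeks of DCA, in age and in their controls, and these cannot be told apart. The shift between the controls enters each difference. In log2, Control-78 against Control-10 was 1.73 for GSTP1, -2.98 for GSTM3 and -2.02 for GSTA1. It was -0.22 for GSTA3, -0.16 for GSTM2 and -0.03 for GSTA2. For Direct-78 against S1-10 edgeR called 5 of 6 members, beside 33.8% of all genes. DESeq2 and limma also called 5 each. GSTP1 differed by -4.47 (SE 0.79, adjusted p = 6.14e-05), from above controls in 6 of 6 S1-10 libraries to below controls in 3 of 3 Direct-78 libraries, and this call was kept without any 1 of the 68 libraries (-4.72 to -4.23). In the same difference 6 of 12 hepatocyte markers (median -1.66) and 3 of 6 pericentral markers (median -1.75) were called lower, beside a median of -0.35 over all genes. Of 4 cholangiocyte markers (median 2.86) 1 was called higher and 1 lower. Pericentral markers summed to 3256 to 10591 CPM in Direct-78 and 12994 to 23585 CPM in Control-78, and the part of these markers in the member differences was not tested. GSTA1 differed by 4.58 (SE 1.48, adjusted p = 0.0142) and GSTA2 by 3.29 (SE 1.16, adjusted p = 0.0245), GSTA2 called lower in S1-10 and GSTA1 called in neither group against its controls. GSTA1 was 5.68 (adjusted p = 0.00371) without mouse 17, and GSTA2 was 4.25 (adjusted p = 0.00392) without mouse 86. GSTM3 differed by 3.46 (SE 1.27, adjusted p = 0.0302) and GSTA3 by -2.53 (SE 0.97, adjusted p = 0.0383). Mean GSTM3 was 16 CPM in S1-10 and 22.6 CPM in Direct-78, but 51.1 CPM in Control-10 and 6.36 CPM in Control-78. Most of its difference thus lay between the control groups. GSTM2 was not called by edgeR (-1.56, SE 0.97, adjusted p = 0.204), while limma called GSTM2 and not GSTA3.

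4 of these 5 calls rested on mouse 68. Without it 452 genes were called, and GSTA1 was 3.76 (adjusted p = 0.0637), GSTA2 2.24 (adjusted p = 0.164), GSTM3 2.95 (adjusted p = 0.0933) and GSTA3 -2.36 (adjusted p = 0.0854). GSTM3 was also lost without mouse 65 of Direct-78 (2.78, adjusted p = 0.0991), and GSTA3 without mouse 17, 18, 64, 65, 66, 71, 85 or 90 (-2.58 to -1.98, adjusted p = 0.0503 to 0.0935) and with RLE scaling (-2.07, adjusted p = 0.0698), upper-quartile scaling (-1.92, adjusted p = 0.0824), limma (-2.16, adjusted p = 0.0956) and thinned counts (-2.30, adjusted p = 0.0533). All 5 were lost with the log2 total count as a covariate, with which 11 genes were called in place of 745, and GSTP1 was then -2.87 (adjusted p = 0.116) and GSTA3 turned to 1.09 (adjusted p = 0.713). Over the 12 alternatives the adjusted p of GSTP1 ran from 1.59e-07 to 0.116 and that of GSTA3 from 0.00545 to 0.713. The median of all genes in this difference was -0.35 with TMM, 0.14 with RLE and 0.26 with upper-quartile scaling, and 296 of 745 calls were higher (39.7%), against 56.4% and 60.2%.

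The other 3 differences of changes gave no member call with edgeR. For S1-78 against S1-10 this stood beside 4.22% of all genes, with 2 members at an unadjusted p under 0.05, 2 calls by DESeq2 and 0 by limma. These were GSTM3 (2.79, SE 1.16, adjusted p = 0.156) and GSTP1 (-1.90, SE 0.66, adjusted p = 0.0806), the latter called without mouse 33 of S1-78 (-2.15, adjusted p = 0.0451) or mouse 86 of Control-78 (-2.01, adjusted p = 0.0495). Without mouse 68 they were 2.29 (adjusted p = 0.455) and -1.66 (adjusted p = 0.289), and the 93 calls over all genes became 14. Mean GSTM3 was 16 CPM in S1-10 and 14.1 CPM in S1-78, but 51.1 CPM in Control-10 and 6.36 CPM in Control-78. For S2-78 against S2-32 the lack of member calls stood beside 0.499%, with 0 at an unadjusted p under 0.05 and no call by DESeq2 or limma. Its 11 calls over all genes became 132 without mouse 86 and 0 without mouse 47 or mouse 90. With RLE scaling they became 51 and with upper-quartile scaling 74. For S3-78 against S3-57 it stood beside 0% of all genes (162 at an unadjusted p under 0.05, 1 called by DESeq2, 0 by limma), and GSTP1 was the 1 member at an unadjusted p under 0.05 (-1.38, SE 0.66, adjusted p = 0.666). Its changes at weeks 57 and 78 in the S3 mice were thus not shown to differ.

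Of 27 other family genes listed, 5 were on the panel and tested: GSTM5, GSTM7, GSTT3, GSTZ1 and ALOX5AP, the last a membrane protein of leukotriene synthesis. Over the 9 contrasts with controls edgeR called 0 of 45 tests, with 5 at an unadjusted p under 0.05, 1 call by DESeq2 and 2 by limma. Of the tests of all genes edgeR called 10.5%, DESeq2 15.3% and limma 11.1%. GSTZ1, the enzyme that metabolizes DCA, ranged from 2231 to 12274 CPM over the 68 libraries. Its 9 log2 fold changes lay between -0.61 and 0.21 (SE 0.33 to 0.41), 8 of them below 0 and the lowest adjusted p 0.212. Direct-78 held it at 5061 to 7062 CPM and Control-78 at 4511 to 9943 CPM. RNA of GSTZ1 says nothing of inactivated protein, which was not measured here.

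GSTM5, a mu-class relative, came nearest to an edgeR call, and over the 9 contrasts it had 1 call by DESeq2 and 1 by limma. S1-32 ranged from 34.9 to 58.2 CPM and Control-32 from 0 to 27.9 CPM, so all 6 treated libraries lay above all controls (1.67, SE 0.70, adjusted p = 0.0597). GSTM7 lay between 0 and 39.4 CPM and ALOX5AP between 0 and 83.8 CPM. GSTT3, of the theta class, ranged from 70.7 to 1805 CPM, with log2 fold changes from -1.18 to 0.91 against controls. It was called among control ages, in Control-57 against Control-10 (99.3 to 771 against 110 to 171 CPM, 1.75, SE 0.53, adjusted p = 0.0466, 5 of 6 above), a call lost in 31 of 68 fits with 1 library left out (1.64, adjusted p = 0.141, without mouse 71) and in 9 of the 12 alternatives.

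The pathway around the family was described through 4 more lists, whose calls stand beside 2083 calls in 19845 tests (10.5%) of all genes over the 9 contrasts, 728 higher and 1355 lower. Of genes that supply and recycle glutathione, 14 of 33 listed were tested, and over the 9 contrasts 1 of 126 tests was called higher and 8 lower. ME1, the malic enzyme that supplies NADPH, fell in S3-78 (mean 291 against 1077 CPM, log2 fold change -1.89, SE 0.51, adjusted p = 0.00884, 4 of 4 below all controls), a call lost without mouse 55 of S3-78 (-1.69, adjusted p = 0.0529). GPX4, which reduces lipid peroxides, rose in S1-32 (mean 1714 against 520 CPM, 1.72, SE 0.49, adjusted p = 0.00832, 3 of 6 above), was 2.60 without mouse 74 (adjusted p = 1.13e-04) and was 0.67 (adjusted p = 0.482) with the log2 total count as a covariate. CHAC1, which breaks down glutathione, had no count in the 4 S2-78 and 3 Direct-78 libraries against 0.834 to 16.8 CPM in Control-78 (mean 9.26). With a floor of 3 counts over the group this is at least 23.6-fold and at least 7.7-fold below that mean (adjusted p = 0.0191 and adjusted p = 0.0266). The floor, 0.392 CPM in S2-78 and 1.2 CPM in Direct-78, covers counting error and not the spread between mice. In Direct-78 it lies above the lowest control. Fits without single libraries are not given for CHAC1. GCLM, the modifier subunit of the rate-limiting enzyme of glutathione synthesis, fell in S3-78 (-1.04, SE 0.31, adjusted p = 0.019, 3 of 4 below all controls), a call lost without mouse 55 (-0.92, adjusted p = 0.089), mouse 59 (-0.90, adjusted p = 0.0854) or mouse 60 (-0.97, adjusted p = 0.0554) of S3-78.

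Of NRF2 regulators and other NRF2 targets 21 of 36 were tested, with 9 of 189 tests called higher and 29 lower. By contrast, higher and lower calls were 1 and 5 in S1-10, 0 and 6 in S1-32, 4 and 6 in S3-78 and 4 and 6 in Direct-78, and 1 or 2 lower in each of the other 5. Of all genes 5.49%, 29.1%, 13.3% and 24.4% were called in those 4 contrasts. UGDH, which makes the sugar donor of glucuronidation, fell in S1-32 (mean 2742 against 20203 CPM, -2.88, SE 0.71, adjusted p = 0.00277, 5 of 6 below all controls), where leaving out 1 library kept the call, and not with the log2 total count as a covariate (-1.55, adjusted p = 0.194). In S1-10 it was -3.35 (SE 0.76, adjusted p = 0.00649, 6 of 6 below), and -1.66 without mouse 68 (adjusted p = 0.443). UGT1A6A, a glucuronosyltransferase, fell in S3-78 (mean 432 against 1016 CPM, -1.23, SE 0.32, adjusted p = 0.00636, 4 of 4 below), with adjusted p = 0.0506 under the total-count covariate. CBR3, a carbonyl reductase, was -4.13 in S1-10 (SE 0.78, adjusted p = 0.00138, 6 of 6 below), and -1.59 without mouse 68 (adjusted p = 0.454). It was called higher in S3-78 (2.79, SE 0.75, adjusted p = 0.00884, 3 of 4 above), with 1.13 without mouse 59 (adjusted p = 0.379), and in Direct-78 (2.15, SE 0.80, adjusted p = 0.0429, 2 of 3 above), a call lost for instance without mouse 65 (1.70, adjusted p = 0.161). SRXN1, which repairs peroxiredoxins, was -2.89 in S1-78 (SE 0.66, adjusted p = 0.00625, 1 of 6 below all controls), and -1.14 without mouse 90 of Control-78 (adjusted p = 0.353). It was also called lower in S3-78 (-2.77, adjusted p = 0.0112) and Direct-78 (-3.67, adjusted p = 0.00438). Without mouse 90 these were -1.01 (adjusted p = 0.311) and -1.91 (adjusted p = 0.0594).

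Of the xenobiotic receptors CAR, PXR and AHR with their targets 13 of 23 were tested, with 3 of 117 tests called higher and 5 lower. CYP1A1, an AHR target, fell in S1-32 (mean 1.99 against 15.2 CPM, -2.89, SE 0.82, adjusted p = 0.00805, 6 of 6 below all controls), and was -1.94 (adjusted p = 0.22) with the total-count covariate. CYP3A11, a PXR target, was -1.83 in S1-10 (SE 0.49, adjusted p = 0.0206, 6 of 6 below) and -2.04 without mouse 68 (adjusted p = 0.0761). In S2-78 it was called higher (1.94, SE 0.49, adjusted p = 0.0191, 3 of 4 above), and was 1.72 without mouse 44 (adjusted p = 0.0763). Of transporters that export conjugates 7 of 10 were tested, with 2 of 63 tests called higher and 3 lower. ABCC5 rose in S3-78 (mean 163 against 52.7 CPM, 1.63, SE 0.39, adjusted p = 0.00406, 4 of 4 above all controls), and was 1.12 (adjusted p = 0.121) with all 78 libraries. ABCC2, the exporter of glutathione conjugates into bile, was -2.37 in Direct-78 (SE 0.88, adjusted p = 0.0418, 3 of 3 below), and 0.21 (adjusted p = 0.959) with the total-count covariate, and it was lost in 11 of 68 fits with 1 library left out, with adjusted p = 0.172 without mouse 64 and -2.25 (adjusted p = 0.128) without mouse 66 of Direct-78.

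**Figure D5:**
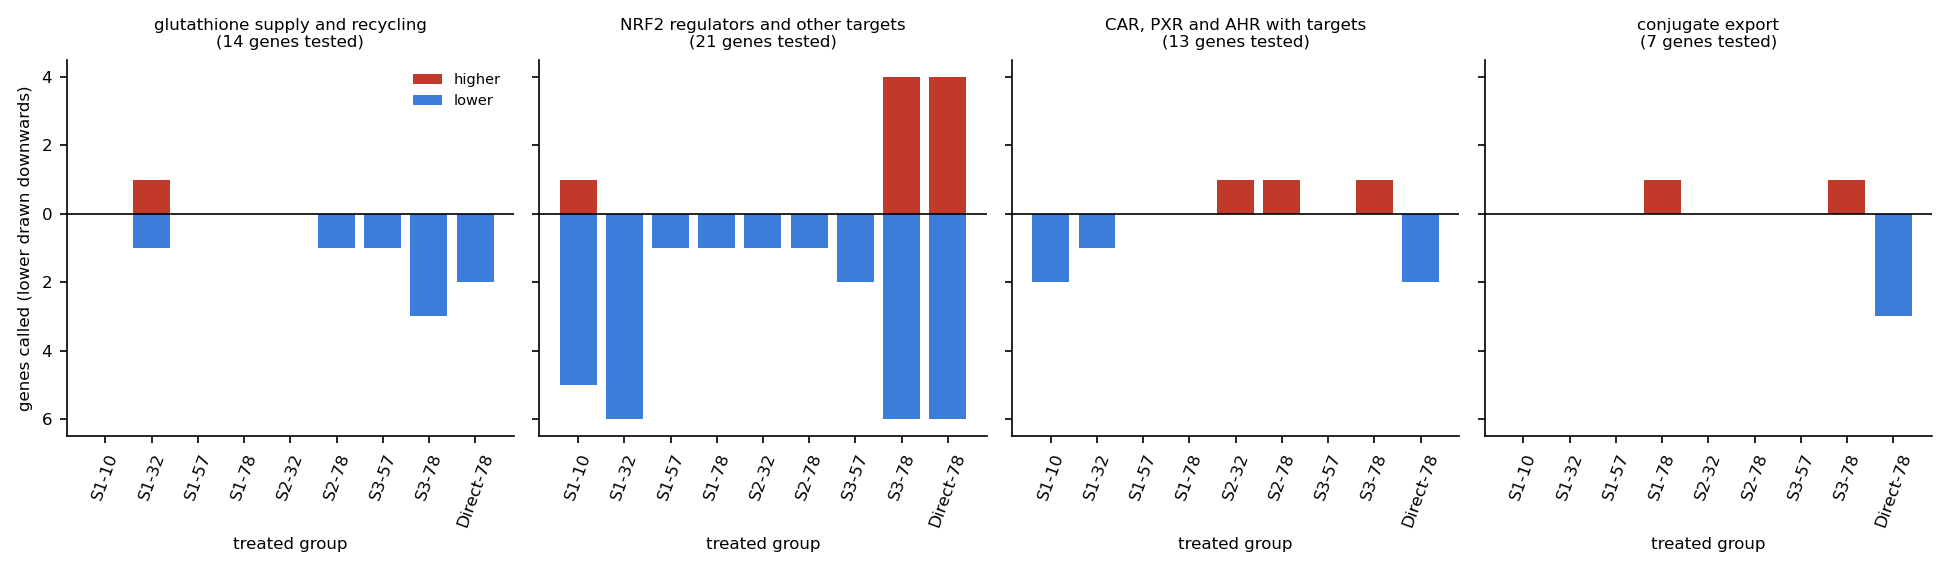
Number of genes called higher (upwards) and lower (downwards) in each treated group against controls of the same week, for 4 lists around the glutathione S-transferases. The NRF2 list has 4 higher and 6 lower calls in both S3-78 and Direct-78, and 6 lower and 0 higher in S1-32.

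Likeness across the 68 libraries was measured by Spearman correlation of log2 CPM over all tested genes, as a description, since the points share groups, depth and tissue makeup. The genes most like GSTA2 were EPHX1 (0.78), the microsomal epoxide hydrolase, CRYZ (0.77) and HSD17B11 (0.72). Those most like GSTA1 were GM3776 (0.90), EPHX1 (0.64) and ACAA1B (0.63). GSTA3 was most like H2-K1 (0.85), BPHL (0.85) and NR1H4 (0.84), and GSTM2 most like COPS5 (0.81), RAN (0.80) and HADH (0.78). GSTM3 had weaker likeness, to CYP3A11 (0.59), ARPP19 (0.57) and COL1A1 (0.57). GSTP1 was most like SERPINA3K (0.82), AMY1 (0.80) and the peroxiredoxin PRDX1 (0.79). Among members the highest correlation was that of GSTA3 with GSTM2 (0.62), followed by GSTA1 with GSTA2 (0.58), and the lowest were GSTA1 with GSTP1 (-0.39) and GSTA2 with GSTA3 (-0.35).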

How the data were processed

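Archived liver sections of 78 mice were measured by TempO-Seq on the Mouse S1500+ panel. The authors' deposited counts are whole read counts per probed gene, aligned with Bowtie (version not stated; build mm10 named). The authors' normalized signal is the count plus 1 over a median-ratio factor per library from Partek Flow 10.0.22.0524, for the 68 libraries they kept, and their filtered table holds 2205 of 2755 genes. The 10 libraries they left out were used only in an alternative. The authors tested with DESeq2 (version not stated).

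Here counts of the 68 libraries in 13 groups were fitted in edgeR 4.0.16 (R 4.3.3; quasi-likelihood, TMM factors) over the 2205 genes in 19 contrasts, with Benjamini-Hochberg adjustment within each contrast, after a test on simulated data. Calls need a fold over 1.5 and an adjusted p at or under 0.05. Counting error sets the limits given for counts of 0 (3 counts); reads carry no molecular identifiers, so such limits cover counting error only. Alternatives were other scaling factors (RLE, upper-quartile), all 2755 genes or the 2697 kept by filterByExpr, all 78 libraries, DESeq2 1.42.0, limma 3.58.1 on log2 of the normalized signal, fits of the compared groups alone, covariates for depth (log2 of the total) and for detected genes, adjusted p alone, each library left out in turn and, added later, leaving out 4 libraries with acinar transcripts and thinning to 541245 counts. Named genes were the 6 members, every measured other family gene, at most 4 genes per list by number of calls, and the 3 genes most like each member. Members and lists were chosen with earlier results of these data known. Within groups, 151 pairs of libraries were checked for copies (smallest chi-square per degree of freedom 25.7). Annotation was GENCODE vM21. Tables and figures used Python 3.11.15, pandas 2.3.3 and matplotlib 3.10.9.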

Additional observations from a re-analysis of the deposited data

Results flagged for a closer look

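In 8 of 72 combinations of member and group the lowest or highest library stood apart from the rest, by the gap to its neighbour as a share of the range of log2 CPM. In independent groups chance alone sets apart about 1 in 20. The 8 came from 6 libraries, and combinations that share a mouse are not independent, so their number is not set against that rate. In Control-10, mouse 68 was the highest for GSTA1 (share 0.851, 441 CPM, next 121) and for GSTA2 (share 0.840, 1699 CPM, next 378). In Control-78, mouse 85 was the lowest for GSTA1 (share 0.729, 4.88 CPM, next 39). In S3-57, mouse 54 was the highest for GSTA1 (share 0.768, 355 CPM, next 55.4), and in S1-78 mouse 32 was the highest for GSTA2 (share 0.780, 561 CPM, next 31.2). In S2-78, mouse 47 had no count of GSTM2 (share 0.883, next 76.5 CPM) or GSTM3 (share 0.870, next 28.3 CPM). In S1-57, mouse 27 was the lowest for GSTP1 (share 0.625, 1786 CPM, next 7374).

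The change against controls differed between Direct-78 and S1-10 for 5 members, as tested with edgeR in the difference of the changes: GSTA1 by 4.58, GSTA2 by 3.29, GSTA3 by -2.53, GSTM3 by 3.46 and GSTP1 by -4.47 in log2. The shift between Control-10 and Control-78, in which GSTM3 and GSTP1 were called, is part of these values. Of all genes 33.8% (745) were called in this difference, 452 without mouse 68 and 11 with the log2 total count as a covariate. Without mouse 68 only GSTP1 stayed called, and with the covariate none of the 5 did, GSTA3 turning to 1.09.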

How the results depend on the processing

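Over the 9 contrasts with controls the 5 member calls became 12 with DESeq2, 9 with limma, 9 in fits of the compared groups alone and 3 with the log2 total count as a covariate. Of all genes' tests 10.5% were called, against 15.3%, 11.1%, 8.25% and 4.07% in these 4 settings. Over the 10 other contrasts the 7 calls became 11 with DESeq2 and 1 with that covariate, beside 5.61%, 9.17% and 1.91% of all genes' tests. The causes were not tested. With 1 library left out in turn the counts ran from 4 to 9 and from 1 to 9. The covariate kept none of the 5 calls against controls, and over all genes it lowered the calls from 642 to 36 in S1-32 and from 539 to 11 in Direct-78. It also turned the direction of GSTA3 in Direct-78 against controls (1.62) and against S3-78 (0.21), of GSTA3 in the difference between Direct-78 and S1-10 (1.09) and of ABCC2 in Direct-78 (0.21). All member values with an unadjusted p under 0.05 kept their direction under the RLE and upper-quartile factors. The other settings gave 5 to 7 calls against controls.

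No paired analysis was possible because each mouse number occurs in 1 group only. Groups hold 3 to 6 libraries, total counts run from 541245 to 4285848, and in S1-32, S3-57, S3-78 and Direct-78 depth does not overlap that of the controls, nor does it in Control-57 against Control-10 or Direct-78 against S3-78, so depth and group cannot be told apart there. GSTM3 had counts of 0 in 7 of 68 libraries.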
